A study of Mus musculus with 12 samples.

Results

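The genes described here are 42 subunits and enzymes of the Polycomb and DNA methylation systems, with the Asxl genes, in hematopoietic stem cells (HSCs) of the mouse. They were picked by gene symbol as known complex members, by a rule that reads no value of the table, and all 42 have a row among the 22548 genes of the deposited expression table. By role they comprise 19 genes of Polycomb repressive complex 1 (PRC1), 11 of Polycomb repressive complex 2 (PRC2), 4 of the histone H2A deubiquitinase PR-DUB with the 3 Asxl genes, 5 of DNA methylation and the 3 Tet genes. RNA-seq was performed on long-term HSCs sorted from C57BL/6 mice in 12 samples of 3 groups. Young HSCs (n = 4, replicates 2 to 5) came from mice of 2 to 4 months, and aged HSCs (n = 5, replicates 0 and 2 to 5) came from mice of 20 to 26 months. Aged CASIN-treated HSCs (n = 3, replicates 1 to 3) came from mice of 20 to 26 months and received 5 µM CASIN, an inhibitor of the small RhoGTPase Cdc42. The labels give all 12 samples, the untreated ones included, 16 h in HBSS with 10% FBS at 3% O2, but they also say that sorted cells went directly into lysis buffer. Whether the control cells were incubated is thus not settled, and if they were not, incubation and CASIN cannot be told apart. Per the labels, each sample holds at least 200 cells, and each arm at least 3 mice. The labels do not say which mice went into which sample, so p-values measure the spread between these samples.

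Polycomb proteins keep developmental genes silent in cells that do not use them. PRC1 is a ubiquitin ligase that marks histone H2A through Ring1 or Rnf2, and it contains a Pcgf protein and either a Cbx reader with a Phc protein (canonical PRC1) or Rybp or Yaf2 (variant PRC1). PRC2 methylates histone H3 through Ezh1 or Ezh2 on a core of Eed, Suz12 and Rbbp4 or Rbbp7, with accessory subunits that steer it to chromatin. PR-DUB, formed by Bap1 and an Asxl protein, removes the PRC1 mark from H2A. Dnmt3a and Dnmt3b place new methyl groups on CpG dinucleotides, Dnmt1 with Uhrf1 copies them at replication, and Tet enzymes oxidize them. In blood, Bmi1 is required for HSC self-renewal, and DNMT3A, TET2 and ASXL1 are among the genes most often mutated in human clonal hematopoiesis.

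Most of these genes start in CpG-rich DNA. Of the 42 members, 37 had a promoter in the RefSeq table (GRCm38.p6, 250 bases before to 50 after the start, the start listed first for each gene); Cbx2, Pcgf1, Rybp, Yaf2 and Asxl3 did not. With CpG-rich taken as a GC content of at least 50% and an observed to expected CpG ratio of at least 0.6, 30 of the 37 promoters (81.1%) were CpG-rich, against 9213 of 27025 promoters of all genes in that table (34.1%). The member promoters held 2 to 57 CpG dinucleotides (median 24), and those of all genes 0 to 65 (median 7). CG reads alike on both strands, and 94.2% of all promoters hold it at least once. The highest count among members was that of Tet2 (57), followed by Scmh1 (54) and Bap1 (50). Dnmt3l, a catalytically inactive partner of the de novo methyltransferases, had 6, Aebp2 had 4 and Dnmt1 had 2 at the start listed first. Other listed starts of Aebp2 and Dnmt1 had up to 21 and 33. The 250 bases before the start are printed for 4 members whose young and aged values do not overlap (Phc3, Bmi1, Asxl2 and Dnmt3b, described with the values) and for Dnmt3l as a CpG-poor example, 5′ to 3′ on the strand of the gene, with each CG in capitals. They are Phc3 (chr3:30969416-30969665, minus strand, 12 CpG), Bmi1 (chr2:18676768-18677017, plus strand, 21 CpG), Asxl2 (chr12:3426607-3426856, plus strand, 31 CpG), Dnmt3b (chr2:153649199-153649448, plus strand, 21 CpG) and Dnmt3l (chr10:78042037-78042286, plus strand, 5 CpG).
Phc3: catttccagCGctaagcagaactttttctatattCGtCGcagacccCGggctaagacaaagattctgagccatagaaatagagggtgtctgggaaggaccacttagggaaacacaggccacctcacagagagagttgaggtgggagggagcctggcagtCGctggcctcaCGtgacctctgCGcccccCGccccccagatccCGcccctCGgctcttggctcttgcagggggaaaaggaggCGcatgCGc
Bmi1: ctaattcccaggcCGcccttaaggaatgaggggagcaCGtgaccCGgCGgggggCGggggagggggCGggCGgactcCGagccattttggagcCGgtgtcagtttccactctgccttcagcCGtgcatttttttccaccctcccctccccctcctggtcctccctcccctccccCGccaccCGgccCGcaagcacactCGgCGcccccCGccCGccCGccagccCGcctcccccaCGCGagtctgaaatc
Asxl2: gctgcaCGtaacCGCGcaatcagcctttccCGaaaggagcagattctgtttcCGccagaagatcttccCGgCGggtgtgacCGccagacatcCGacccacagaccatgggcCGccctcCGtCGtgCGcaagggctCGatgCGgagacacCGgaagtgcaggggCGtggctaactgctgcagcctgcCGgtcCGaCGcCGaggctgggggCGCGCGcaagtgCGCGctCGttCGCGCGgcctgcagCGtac
Dnmt3b: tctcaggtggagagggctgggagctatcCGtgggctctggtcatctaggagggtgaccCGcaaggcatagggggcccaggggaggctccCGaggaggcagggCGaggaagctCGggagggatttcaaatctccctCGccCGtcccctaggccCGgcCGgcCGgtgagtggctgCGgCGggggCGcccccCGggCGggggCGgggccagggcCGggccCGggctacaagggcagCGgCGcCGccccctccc
Dnmt3l: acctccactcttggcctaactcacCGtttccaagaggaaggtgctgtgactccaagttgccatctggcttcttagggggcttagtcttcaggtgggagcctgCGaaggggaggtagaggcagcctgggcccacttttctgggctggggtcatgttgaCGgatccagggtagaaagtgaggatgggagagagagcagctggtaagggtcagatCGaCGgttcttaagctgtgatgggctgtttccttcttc

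**Figure D1:**
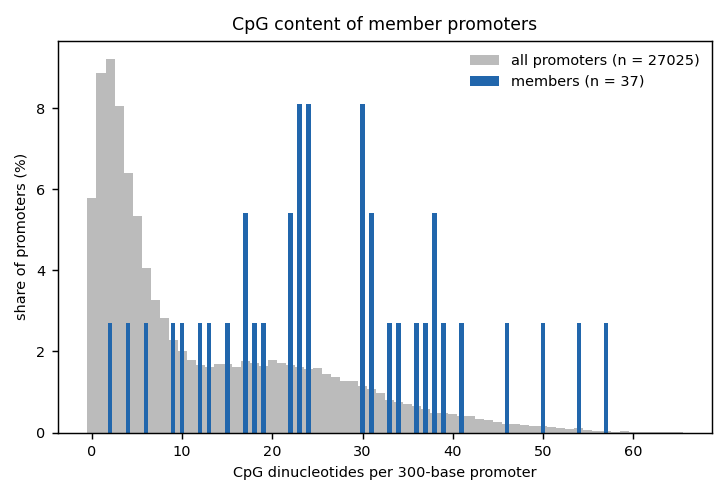
CpG dinucleotides per 300-base promoter (x axis) against the share of promoters in percent (y axis), for 27025 genes of the RefSeq table (grey) and for the 37 members found there (blue). The median lies at 24 CpG for members and at 7 for all genes, and the 3 member bars under 7 are Dnmt1, Aebp2 and Dnmt3l.

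The authors deposited log2 expression values adjusted towards the same distribution in every sample, with a highest value of 16.09 in each. The low end still differs between samples, and in each sample many genes share its lowest value (0 to 0.67). A gene above that value was counted as detected. Above the lowest value, the next values form steps that many genes share in a sample (458 to 1452 at the first step). The genes on a first step span from 61 to 2270506 bases of the genome, introns included. The unit of the values and any scaling to transcript length are not given in the sources used here. Levels were therefore compared between samples for each gene and not between genes. The first step lay at 1.84 to 4.11 in young, at 0.22 to 1.36 in aged and at 0.037 to 3.34 in aged CASIN-treated HSCs, with hardly any gene (10 to 37 per sample) between it and the lowest value. A low value in an aged sample can thus lie where a young sample has no values. Of all genes, 27.0% to 42.9% were detected in young, 50.8% to 78.1% in aged and 30.4%, 88.8% and 32.3% in CASIN-treated replicates 1, 2 and 3. Of the 42 members, 17 to 27 were detected in young, 28 to 39 in aged and 19, 42 and 15 in CASIN-treated samples. Genes that nearly every cell uses were also at the lowest value, Hprt in 10 and Rplp0 in 6 of 12 samples, whereas Actb and Gapdh were above it in every sample (chosen after their values were seen), so a gene at the lowest value is not shown to be unexpressed. The values used hold no counts, so the depth is unknown. In bulk samples, fewer cells of a type and less RNA per cell cannot be told apart. Of 11 HSC markers, 3 to 5 were detected in young, 7 to 11 in aged and 3 to 11 in CASIN-treated samples, with summed values of 27.3 to 32.9, 19.0 to 32.2 and 27.4 to 36.1. The 11 include Cd34 and Flt3, which the sorting gate selects against. Cd34 was detected in 1 of 4 young, 4 of 5 aged and 1 of 3 CASIN-treated samples, and Flt3 in 1, 5 and 1. Of the other 9 markers, 3 to 5 were detected in young, 5 to 9 in aged and 3 to 9 in CASIN-treated samples. Meis1 was detected in all 12 samples, whereas Kit and Ly6a, which define the sorting gate, were at the lowest value in all 4 young samples and in CASIN-treated replicates 1 and 3. Of 22 markers of other blood cells, 1 to 7 were detected in young, 7 to 14 in aged and 3 to 18 in CASIN-treated samples (summed values 21.2 to 45.4, 31.2 to 47.6 and 31.2 to 46.6). Itgam stood at 7.48 to 9.17 in every sample, and Prtn3 and Hbb-bt were at the lowest value in every sample. The part of these markers in the values of the members was not tested.

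**Figure D2:**
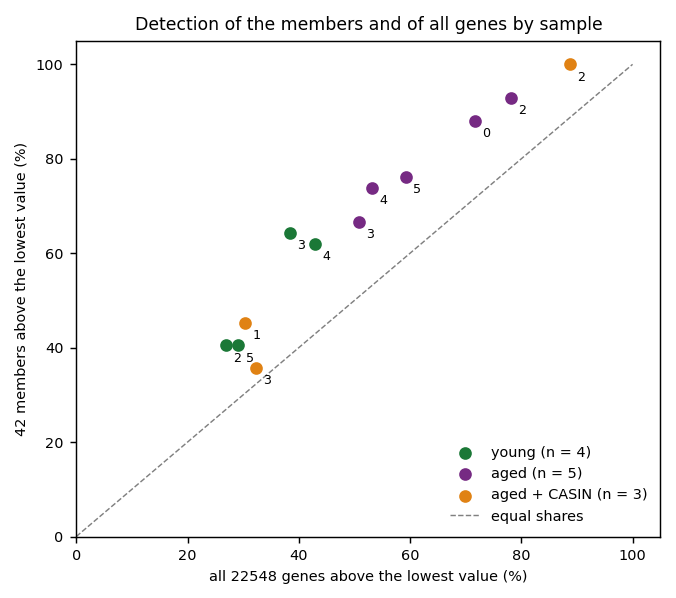
Share of the 22548 genes above the lowest value of the sample in percent (x axis) against the same share of the 42 members (y axis), 1 point per sample, labelled with its replicate number, with a dashed line of equal shares. Young (green) and 2 of 3 CASIN-treated samples (orange) lie at the lower left, aged samples (purple) between 50.8% and 78.1%, CASIN-treated replicate 2 at 88.8%, and all 12 samples lie above the line.

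Of the 504 values of the members, 174 were at the lowest value of the sample. Only Pcgf2, Jarid2, Rbbp4, Asxl2, Tet1 and Tet2 were detected in all 12 samples. With Dnmt3a, 7 members were detected in every young sample, against 22 in every aged and 11 in every CASIN-treated sample. Cbx7, Cbx8, Bmi1, Ring1, Pcgf1 and Bap1 were detected in no young sample, and no member was missing from all aged or all CASIN-treated samples. The members thus held more values above the lowest in aged than in young HSCs, as did genes in general. Among them are several for which the annotation places another gene on the same bases: 25 members overlap another annotated gene (GENCODE M21, mm10), and in 14 that gene also has a row in the table. Use of strand in the counting is not given in the sources used here, so reads from such pairs cannot be told apart. Where positions are given below, an overlapping gene is mentioned only if it has values here. Phc3, Rybp and Dnmt3b overlap annotated genes that have none.

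**Figure D3:**
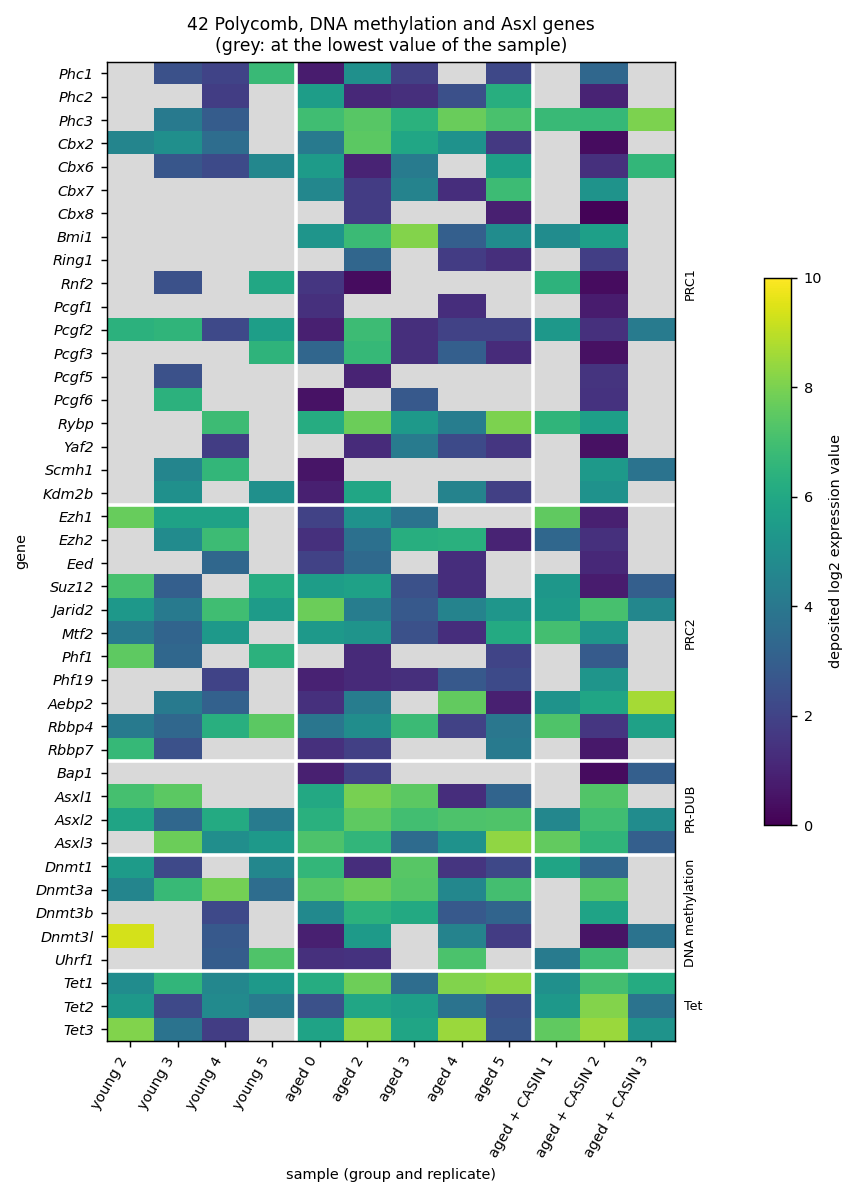
Deposited log2 value (colour, 0 to 10) of the 42 members (rows, ordered by role) in the 12 samples (columns, by group and replicate), with values at the lowest value of the sample in grey. Grey cells are most frequent in young samples and in CASIN-treated replicates 1 and 3, and Bmi1 and Cbx7 are grey in all 4 young samples but in no aged sample.

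Young and aged HSCs were compared to ask how the Polycomb and DNA methylation genes differ with age. Of the 42 members, 9 had an unadjusted p under 0.05 in limma (2 higher and 7 lower in young), where 5.33% of all genes had (2.13% higher and 3.2% lower). The 7 lower in young were Phc2, Phc3, Cbx7, Bmi1, Rybp, Asxl2 and Dnmt3b, and the 2 higher were Scmh1 and Phf1. In 5 members, all lower in young, the values of the groups did not overlap (Phc3, Cbx7, Bmi1, Asxl2 and Dnmt3b), where 1.96% of all genes did not (1.61% lower and 0.341% higher in young). None of the 42 had a Benjamini-Hochberg adjusted p under 0.05 over all genes in limma, where 0.0177% of all genes (4) had, and the smallest adjusted p of a member was 0.0953. Across members, 26 were lower and 16 higher in young, and the median difference of log2 values (young minus aged) was -0.55, against -0.017 for all genes. When samples were centred on their median over commonly detected genes, 22 were lower and 20 higher, and these medians were -0.094 and 0.44. The lowest values were higher in young (0.43 to 0.67) than in aged samples (0.018 to 0.23). A gene detected in neither group thus counts as higher in young. With the same lowest value in all samples, the medians were -0.51 for members and -0.17 for all genes. Among genes averaging 3 or more (20 members), they were -0.92 and -0.31, so such genes in general were also lower in young by median.

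The member with the smallest adjusted p was Phc3 of canonical PRC1, a Polyhomeotic protein that links PRC1 complexes through its SAM domain (chromosome 3, 30899371 to 30969415, minus strand). It was at the lowest value in young replicates 2 and 5 and at 4.09 and 2.92 in young replicates 3 and 4. In aged replicates 0, 2, 3, 4 and 5 it stood at 6.95, 7.39, 6.40, 7.71 and 7.14. Every aged sample was above every young sample by more than 2 log2 units. Phc3 averaged 2.08 ± 1.71 (SD, n = 4) for young and 7.12 ± 0.49 (SD, n = 5) for aged HSCs, a difference of -5.03 (SE 0.73, adjusted p = 0.0953). An unadjusted p under 0.05 was found whichever of the 12 samples was left out and in all 13 other settings. The limma adjusted p was 0.0189 without young replicate 3, the young sample with the highest Phc3 value (4.09). In no other fit with a sample left out was the limma adjusted p under 0.05. When all values under the highest first step (4.11) were raised to it (the common first step, a setting chosen after the values were seen), the difference shrank to -3.01 with a limma adjusted p of 0.0311. All 4 young values of Phc3 lie under that step and become equal there, so the young spread is removed by construction and that p is no support for the difference. With the percentage of detected genes as a covariate the difference was -4.91 (limma adjusted p = 0.627).

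Bmi1 (Pcgf4), the Pcgf subunit of canonical PRC1 (chromosome 2, 18677018 to 18686629, plus strand), was at the lowest value in all 4 young samples. In aged replicates 0, 2, 3, 4 and 5 it stood at 5.22, 6.80, 8.13, 3.03 and 4.85. Aged HSCs therefore listed Bmi1 well above the lowest value in 5 of 5 samples and young HSCs in 0 of 4. The difference of the deposited values was -5.05 (SE 1.16, adjusted p = 0.515), which is not a fold change, because young HSCs give no value for the gene. It had an unadjusted p under 0.05 whichever of the 12 samples was left out. At the common first step, where aged replicate 4 also lies under the step, the difference was -1.71 with an unadjusted limma p under 0.05. All 4 young values become equal there, so the young spread is removed by construction and that p is no support for the difference. Its paralogue Pcgf2 (Mel18), which takes the same place in PRC1, was detected in all 12 samples, at 6.41, 6.55, 2.21 and 5.59 in young and at 0.90, 6.85, 1.36, 1.97 and 1.97 in aged HSCs. These ranges overlap, and the difference was 2.58 (SE 1.39). The mean of Pcgf2 was thus higher in young and that of Bmi1 higher in aged HSCs, but the highest Pcgf2 value of both groups was that of aged replicate 2 (6.85). The contrast between the paralogues was not tested.

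Cbx7, a chromodomain protein that binds the methyl mark of PRC2 (chromosome 15, 79915807 to 79971119, minus strand, overlapped by Apobec3), was at the lowest value in all young samples and stood at 4.62, 1.78, 4.47, 1.30 and 6.84 in aged replicates 0, 2, 3, 4 and 5. All 5 aged values exceeded the young ones, but 2 of them lie under 1.84, the lowest first step of a young sample. The difference of the deposited values was -3.24 (SE 1.24, limma adjusted p = 0.764). Without aged replicate 5 it was -2.48 and the unadjusted p no longer under 0.05. Cbx2, another Cbx reader, was detected in 3 of 4 young and 5 of 5 aged samples with a difference of -1.41 (SE 1.16). Cbx6 overlapped between groups (-0.74, SE 1.55), and Cbx8 was detected in no young and 2 of 5 aged samples.

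Phc2, the second Polyhomeotic member (chromosome 4, 128654702 to 128752881, plus strand), was detected in young replicate 4 alone among young samples, at 1.84, and stood at 5.58, 1.16, 1.36, 2.46 and 6.27 in aged replicates 0, 2, 3, 4 and 5. The young value fell inside the aged range, and the difference was -2.45 (SE 1.05, limma adjusted p = 0.764). The unadjusted p was above 0.05 in 8 of the 12 fits with a sample left out (without aged replicate 0 or 5, without young replicate 2, 3 or 5, or without any of the CASIN-treated samples), with differences of -2.45 to -1.73. Phc1 was detected in 3 of 4 young and 4 of 5 aged samples, with a difference of 0.98 (SE 1.32).

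The catalytic subunits of PRC1 are Ring1 and Rnf2. Ring1 was at the lowest value in all young samples and was detected in aged replicates 2, 4 and 5 at 3.29, 1.80 and 1.36. Rnf2 (Ring1B) was detected in young replicates 3 and 5 at 2.50 and 5.99 and in aged replicates 0 and 2 at 1.57 and 0.32. Neither paralogue was thus above the lowest value in every sample of a group, and their differences of -0.79 and 1.90 had SEs of 0.64 and 1.41.

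Among genes of variant PRC1, Rybp, the adaptor that replaces the Cbx protein (chromosome 6, 100228565 to 100287485, minus strand), was at the lowest value in young replicates 2, 3 and 5 and at 6.84 in young replicate 4. It stood at 6.18, 7.76, 5.39, 4.24 and 8.01 in aged replicates 0, 2, 3, 4 and 5. The young sample that detected Rybp lay inside the aged range, so that the groups differed in how many samples detected it (1 of 4 and 5 of 5). The difference was -4.15 (SE 1.61, limma adjusted p = 0.764). When values at the lowest value were treated as missing it was 0.52, and the unadjusted p was above 0.05 without aged replicate 2 or 5 or without young replicate 2, 3 or 5 (differences of -3.79 to -3.59). Its paralogue Yaf2 was detected in 1 of 4 young samples, at 1.84, and in 4 of 5 aged samples, at 1.21 to 4.16 (difference -0.93, SE 0.71). Kdm2b, which brings variant PRC1 to unmethylated CpG islands, was detected in 2 young and 4 aged samples at overlapping values (0.10, SE 1.57). Pcgf1, Pcgf3, Pcgf5 and Pcgf6, the Pcgf subunits of variant complexes, were detected in 0, 1, 1 and 1 of 4 young and in 2, 5, 1 and 2 of 5 aged samples, and none had a p under 0.05.

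Scmh1, a Scm-like protein associated with PRC1 (chromosome 4, 120405281 to 120530186, plus strand), differed in the other direction. It was at 4.56 and 6.63 in young replicates 3 and 4 and at the lowest value in young replicates 2 and 5. Among aged samples it was detected in replicate 0 alone, at 0.58, less than the lowest value of 0.67 in young replicate 2. The difference was 2.89 (SE 1.30, limma adjusted p = 0.764). The unadjusted p was above 0.05 in the 8 fits without an aged sample, without young replicate 3 or 4 or without CASIN-treated replicate 3 (differences of 1.72 to 2.97), and when all samples were given the same lowest value (2.46).

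**Figure D4:**
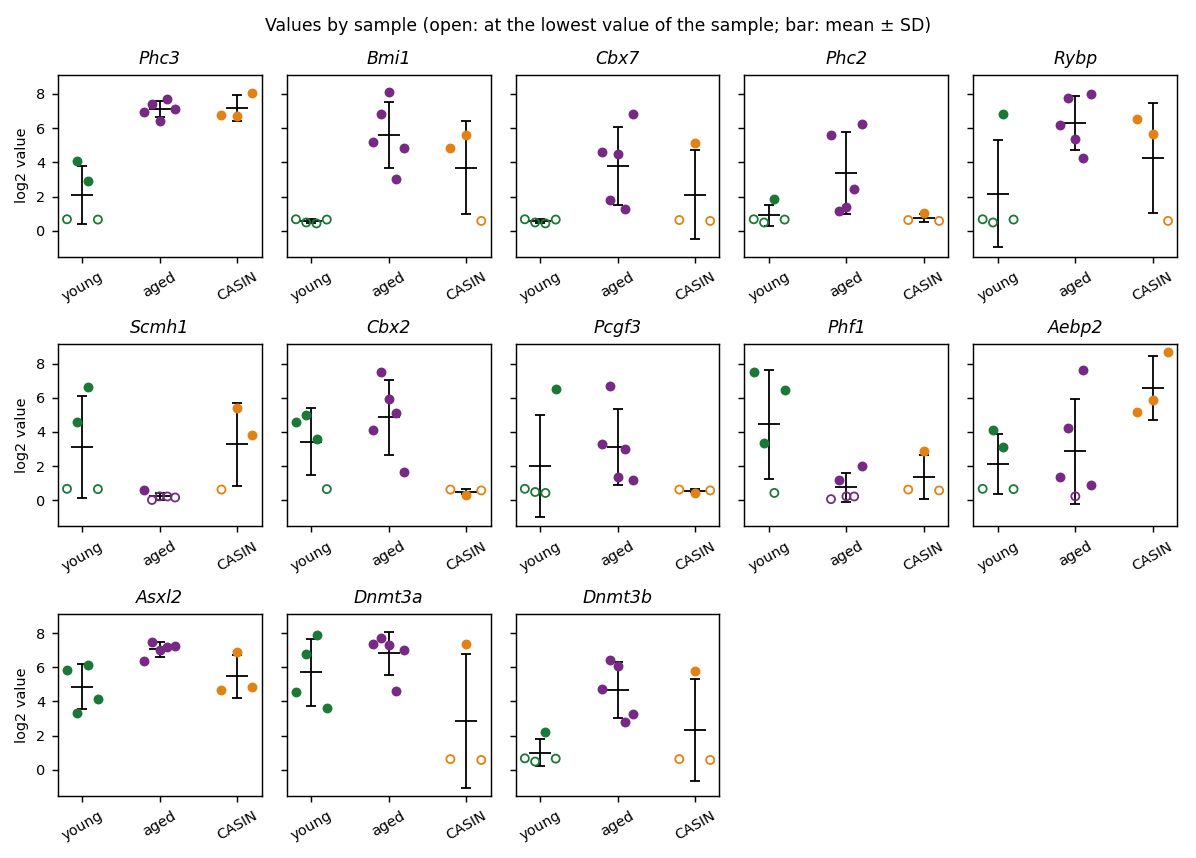
Deposited log2 values (y axis) of the 13 members with an unadjusted p under 0.05 or no overlap in a comparison with aged HSCs, by group (x axis), 1 point per sample, open where the gene was at the lowest value of the sample, with bars for the mean and SD. Phc3 and Asxl2 are the members in which young values lie below all aged values also at the common first step.

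In the core of PRC2 no member reached an unadjusted p of 0.05 in this comparison. Ezh1, the methyltransferase of resting cells, stood at 7.69, 5.78 and 5.76 in young replicates 2, 3 and 4 and at the lowest value in young replicate 5. In aged replicates 0, 2 and 3 it stood at 1.96, 5.09 and 3.82, and it was at the lowest value in aged replicates 4 and 5. Ezh2, the methyltransferase of dividing cells, was detected in young replicates 3 and 4 at 4.82 and 6.84 and in all aged samples at 1.37, 3.69, 6.27, 6.35 and 0.995. All 3 young values of Ezh1 were above every aged value, but the fourth young sample did not detect it (difference 2.72, SE 1.83), whereas the Ezh2 ranges overlapped throughout (difference -0.49, SE 1.60). Suz12 was detected in 3 of 4 young and 4 of 5 aged samples and Eed in 1 of 4 and 3 of 5, with differences of 1.14 and -0.12. The histone-binding subunit Rbbp4 was detected in all samples, at 3.35 to 7.49 in young and 1.97 to 6.83 in aged HSCs, and its paralogue Rbbp7 in 2 of 4 and 3 of 5.

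Among the accessory subunits of PRC2, Phf1 (Pcl1), a Tudor-domain protein (chromosome 17, 26933052 to 26937908, plus strand, overlapped by Cuta), was higher in young HSCs. It stood at 7.53, 3.35 and 6.44 in young replicates 2, 3 and 5 and at the lowest value in young replicate 4. In aged HSCs it was detected in replicates 2 and 5 alone, at 1.20 and 2.03. The 3 young samples that detected Phf1 were above all aged samples, and the fourth was not. The difference was 3.69 (SE 1.28, limma adjusted p = 0.764), and 2.66 without young replicate 2 and 3.02 without young replicate 5, where the unadjusted p was above 0.05. Of the other Polycomb-like proteins, Mtf2 (Pcl2) was detected in 3 of 4 young and 5 of 5 aged samples at overlapping values (-0.74, SE 1.50), and Phf19 (Pcl3) in 1 of 4 and 5 of 5 (-0.76, SE 0.92). Whether they differ from Phf1 was not tested. Jarid2, a targeting subunit of PRC2, was detected in every sample, at 4.14 to 6.95 in young and 2.79 to 7.77 in aged HSCs (0.56, SE 0.97). In PRC2 as a whole, 6 of 11 members were higher and 5 lower in young, with a median difference of 0.56, and in PRC1 7 of 19 were higher and 12 lower, with a median of -0.74.

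In PR-DUB, Asxl2 (chromosome 12, 3426857 to 3506852, plus strand, with an antisense gene on the same bases) was detected in all 12 samples. It stood at 5.86, 3.35, 6.12 and 4.15 in young replicates 2 to 5 and at 6.35, 7.50, 6.98, 7.20 and 7.25 in aged replicates 0, 2, 3, 4 and 5. The groups did not overlap, the highest young sample (replicate 4) being just below the lowest aged one (replicate 0), and no sample was at the lowest value. Asxl2 averaged 4.87 ± 1.34 (SD, n = 4) for young and 7.06 ± 0.44 (SD, n = 5) for aged HSCs, a difference of -2.19 (SE 0.68, adjusted p = 0.697). The unadjusted p was under 0.05 whichever of the 12 samples was left out and at the common first step, but not with the percentage of detected genes as a covariate (difference -1.38). Asxl1 varied more, at 7.04 and 7.48 in young replicates 2 and 3 and at the lowest value in young replicates 4 and 5, and at 6.02, 7.95, 7.49, 1.30 and 3.24 in aged HSCs. Both groups of Asxl1 spanned most of the scale (difference -1.30, SE 2.14). Asxl3 was detected in 3 of 4 young and 5 of 5 aged samples (-1.47, SE 1.50). The catalytic subunit Bap1 was at the lowest value in all young samples and was detected in aged replicates 0 and 2 at 0.86 and 1.91.

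Of the DNA methyltransferases, Dnmt3b, which places new methylation (chromosome 2, 153649450 to 153687730, plus strand), was at the lowest value in young replicates 2, 3 and 5 and at 2.21 in young replicate 4. It stood at 4.74, 6.43, 6.07, 2.79 and 3.24 in aged replicates 0, 2, 3, 4 and 5. All aged values were above all young ones. The difference was -3.65 (SE 1.17, adjusted p = 0.739), and p was under 0.05 whichever of the 12 samples was left out. The difference was -0.98 at the common first step and -1.28 with the percentage of detected genes as a covariate, where the unadjusted p was above 0.05. Its paralogue Dnmt3a (chromosome 12, 3806007 to 3914443, plus strand, with the antisense gene Dnmt3aos on the same bases) was detected in all young samples, at 4.55, 6.75, 7.89 and 3.59, and in all aged samples, at 7.37, 7.73, 7.31, 4.62 and 6.99. These ranges overlap (difference -1.11, SE 1.45). Dnmt1 overlapped as well (-0.61, SE 1.67), as did Uhrf1 (0.76, SE 1.89). Dnmt3l ranged from the lowest value in young replicates 3 and 5 to 9.35 in young replicate 2, and was at 0.86 to 5.45 in 4 of 5 aged samples (0.76, SE 1.85).

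No Tet gene reached an unadjusted p of 0.05 for age. Tet1 stood at 4.85, 6.58, 4.62 and 5.38 in young and at 6.18, 7.79, 3.59, 8.12 and 8.30 in aged HSCs, with its minimum in aged replicate 3 (difference -1.44, SE 0.96). Tet2, the Tet gene most often lost in human blood clones, stood at 5.33, 2.22, 4.80 and 4.15 in young and at 2.48, 5.90, 5.64, 3.82 and 2.49 in aged HSCs. The means of Tet2 were 4.13 ± 1.36 (SD, n = 4) and 4.07 ± 1.65 (SD, n = 5), a difference of 0.061 (SE 1.08). Tet3 was at 8.10, 3.82 and 1.84 in young replicates 2, 3 and 4 and at the lowest value in young replicate 5, and ran from 2.67 to 8.51 in aged HSCs (-2.63, SE 1.62).

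Several of these differences rest on low values. When all values under the highest first step (4.11) were raised to it, the members with a limma p under 0.05 between young and aged HSCs were Phc3, Bmi1 and Asxl2, where 2.63% of all genes had such a p, and groups without overlap remained for Phc3 and Asxl2, where 0.612% of all genes had none. The young values of Phc3 and of Bmi1 become equal at that step by construction, so their p there is no support for a difference. With the percentage of detected genes as a covariate, 5 members had a p under 0.05, namely Phc3, Bmi1, Scmh1, Phf1 and Dnmt3a, of which 3 were higher in young, where 4.99% of all genes had such a p.

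**Figure D5:**
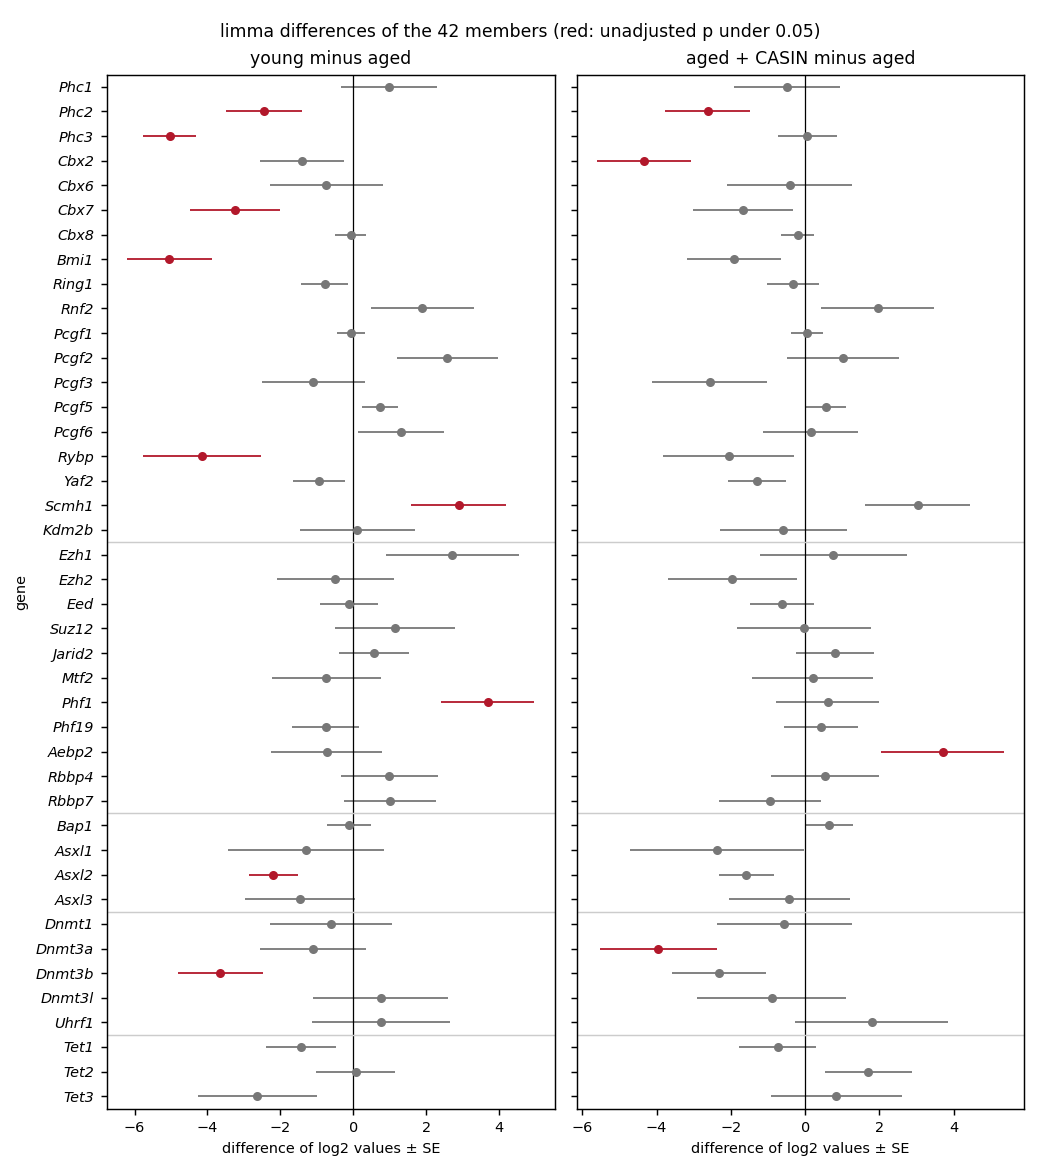
Difference of log2 values with its SE (x axis) for each of the 42 members (y axis, ordered by role), young minus aged on the left and aged CASIN-treated minus aged on the right, in red where the unadjusted limma p was under 0.05. Of the 9 red members on the left 7 lie below 0, with Phc3 and Bmi1 near -5, and of the 4 on the right 3 lie below 0. Both panels use the same 5 aged samples.

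Aged CASIN-treated and aged HSCs were compared to ask how these genes differ after inhibition of Cdc42. Of the 42 members, 4 had an unadjusted limma p under 0.05 (1 higher and 3 lower after CASIN), where 4.4% of all genes had (2.48% higher and 1.92% lower). The 3 lower were Phc2, Cbx2 and Dnmt3a, and the higher one was Aebp2. The values of 3 members (Phc2, Cbx2 and Pcgf3) did not overlap, all lower after CASIN, where 2.11% of all genes did not (1.43% lower and 0.683% higher). None had an adjusted p under 0.05 in limma, where 0.0222% of all genes (5) had, and the smallest adjusted p of a member was 0.948. Across members 24 were lower and 18 higher, with a median of -0.37 against -0.038 for all genes. With the same lowest value in all samples, these medians were -0.46 and -0.17, and among genes averaging 3 or more -0.23 and -0.16. CASIN-treated replicate 2 detected all 42 members and the other two 19 and 15, so that values at the lowest value in this group come from replicates 1 and 3. The count of 4 was 2 without aged replicate 0, 3 or 5 and 1 without CASIN-treated replicate 3. Of the members with a p under 0.05, 2 of 4 were higher when samples were centred on their median over commonly detected genes, and 0 of 3 when all samples were given the same lowest value.

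Cbx2, a Cbx reader of canonical PRC1 (chromosome 11, 119022962 to 119031270, plus strand), was at the lowest value in CASIN-treated replicates 1 and 3 and at 0.32 in replicate 2. In aged replicates 0, 2, 3, 4 and 5 it stood at 4.09, 7.48, 5.92, 5.10 and 1.65. All 3 treated samples were below all 5 aged samples, and treated replicate 2, which detected the most genes of all, had Cbx2 close to its lowest value. The difference was -4.34 (SE 1.26, adjusted p = 0.948), and p was under 0.05 whichever of the 12 samples was left out and with the percentage of detected genes as a covariate (-4.21). At the common first step, under which aged replicates 0 and 5 lie, it was -1.23 and the unadjusted p above 0.05.

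Dnmt3a was at the lowest value in CASIN-treated replicates 1 and 3 but at 7.35 in replicate 2, inside the aged range of 4.62 to 7.73. The treated samples thus fell on both ends of the scale, and the mean of 2.85 ± 3.90 (SD, n = 3) describes none of them. The difference of -3.95 (SE 1.58) was 0.55 when values at the lowest value were treated as missing. It was -6.21 without CASIN-treated replicate 2, and the unadjusted p was above 0.05 without treated replicate 1 or 3 or without aged replicate 0, 2 or 3 (differences of -3.83 to -2.82). Dnmt3b and Asxl1 had the same layout, at the lowest value in treated replicates 1 and 3 and at 5.80 and 7.28 in replicate 2, with differences of -2.32 (SE 1.27) and -2.37 (SE 2.33).

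Phc2 was at the lowest value in CASIN-treated replicates 1 and 3 and at 1.01 in replicate 2, just under the lowest aged value of 1.16. The difference was -2.63 (SE 1.14). The unadjusted p was above 0.05 in the 8 fits without a treated sample, without aged replicate 0 or 5 or without young replicate 2, 3 or 5 (differences of -2.76 to -1.90). Pcgf3 was at the lowest value in treated replicates 1 and 3 and at 0.45 in replicate 2, below the aged values of 3.29, 6.68, 1.36, 3.03 and 1.21 (difference -2.57, SE 1.55). No member was free of overlap between these groups at the common first step, where 0.772% of all genes were.

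Aebp2, a zinc finger subunit that PRC2 carries together with Jarid2 (chromosome 6, 140622663 to 140678472, plus strand), stood at 5.15, 5.89 and 8.65 in CASIN-treated replicates 1, 2 and 3. In aged replicates 0, 2, 4 and 5 it stood at 1.37, 4.22, 7.61 and 0.89, and it was at the lowest value in aged replicate 3. All 3 treated samples detected it, and 4 of 5 aged samples were below all of them. The difference was 3.70 (SE 1.66), with an unadjusted p above 0.05 in 9 of the 12 fits with a sample left out (without aged replicate 0, 3 or 5, without CASIN-treated replicate 2 or 3, or without any young sample, differences of 2.65 to 4.04). Jarid2 itself was at 5.44, 7.08 and 4.62 in the treated samples, inside the aged range of 2.79 to 7.77 (0.80, SE 1.06).

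Of the genes without overlap between young and aged HSCs, Phc3 overlapped between CASIN-treated and aged HSCs. It stood at 6.77, 6.70 and 8.04 in treated replicates 1, 2 and 3, a mean of 7.17 ± 0.76 (SD, n = 3) against 7.12 in aged HSCs, with a difference of 0.054 (SE 0.79). Bmi1 was at 4.86 and 5.63 in treated replicates 1 and 2 and at the lowest value in replicate 3 (-1.92, SE 1.26). Asxl2 was at 4.64, 6.92 and 4.85, so that replicates 1 and 3 were below all aged samples and replicate 2 was not (-1.59, SE 0.74). Cbx7 was detected in treated replicate 2 alone, at 5.15 (-1.68, SE 1.34). Scmh1 was at 5.38 and 3.82 in treated replicates 2 and 3 (3.03, SE 1.41), and Phf1 was detected in replicate 2 alone, at 2.86 (0.60, SE 1.39). The young and the CASIN-treated groups were both measured against the same aged samples, so values side by side in these comparisons are not independent. The Tet genes were detected in all treated samples, Tet1 at 5.01 to 7.01, Tet2 at 3.82 to 8.14 and Tet3 at 5.13 to 8.50, and all 3 ranges overlapped those of aged HSCs (differences of -0.74, 1.70 and 0.83).

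Young and aged CASIN-treated HSCs were compared directly. Of the 42 members, 4 had an unadjusted limma p under 0.05 (1 higher and 3 lower in young), where 4.29% of all genes (968) had (1.39% higher and 2.9% lower). The 3 lower in young were Phc3, Bmi1 and Aebp2 and the higher one was Cbx2. No member had an adjusted p under 0.05 in limma, where 0% of all genes had. The values of Phc3 and Aebp2 did not overlap, both lower in young, where 2.07% of all genes did not (1.4% lower and 0.674% higher), and this held for both at the common first step, where 1.24% of all genes had no overlap. All young values of both genes become equal at that step, so it shows only that every treated value lies above the step. The median difference of members (young minus CASIN-treated) was -0.046, against 0.092 for all genes, with 20 higher and 22 lower. With the same lowest value in all samples, these medians were -0.023 and 0, and among genes averaging 3 or more -0.42 and -0.066. The count of 4 was 2 without CASIN-treated replicate 1 or 3 and 2 without young replicate 2, 3 or 5. Of the members with a p under 0.05, 0 of 3 were higher when all samples were given the same lowest value.

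Phc3 was lower in all 4 young than in all 3 treated samples (-5.09, SE 0.83, adjusted p = 0.207), with an unadjusted p under 0.05 whichever of the 12 samples was left out and in all 13 other settings. At the common first step, where the 4 young values become equal by construction, the difference shrank to -3.06 (limma adjusted p = 0.0269). Aebp2 was at 4.09 and 3.11 in young replicates 3 and 4 and at the lowest value in young replicates 2 and 5, all below the lowest treated sample of 5.15. Its difference was -4.43 (SE 1.73), and -3.39 without CASIN-treated replicate 3, -3.95 without young replicate 2 and -3.94 without young replicate 5, where the unadjusted p was above 0.05. Bmi1 differed by -3.13 (SE 1.32), a call lost in 6 of 12 fits (without any young sample or CASIN-treated replicate 1 or 2, differences of -3.17 to -2.16). Cbx2 stood at 4.55, 4.96 and 3.58 in young replicates 2, 3 and 4 and at the lowest value in young replicate 5, which overlaps the treated samples (2.93, SE 1.32). That call was lost in 9 of 12 fits (without aged replicate 0, 3 or 4, without any treated sample or without young replicate 2, 3 or 4, differences of 2.42 to 2.99).

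The wider pathways were described with 4 more lists. Of 28 other Polycomb factors, 3 had an unadjusted limma p under 0.05 between young and aged HSCs, 3 between CASIN-treated and aged and 1 between young and CASIN-treated HSCs, beside the 5.33%, 4.4% and 4.29% of all genes. Those with a p under 0.01 between young and aged (1.34% of all genes) were Usp7 and Sfmbt1. Usp7, a deubiquitinase that copurifies with variant PRC1, was at the lowest value in all young samples and at 1.52 to 5.44 in aged HSCs (-2.96, SE 0.79, adjusted p = 0.539). Sfmbt1, an MBT-domain protein, was also at the lowest value in all young samples and at 3.89 to 8.27 in aged HSCs (-5.09, SE 1.38, adjusted p = 0.542). Both had the direction of Bmi1 and Cbx7 (lower in young, where the gene was not detected). None of 22 other DNA methylation factors had a limma p under 0.05 in any of the 3 comparisons, and none of 15 germline genes that DNA methylation keeps silent had. Of 24 known Polycomb target genes, 3 had a limma p under 0.05 between young and aged HSCs (Pax7 and Neurog2 lower and Sox1 higher in young), 0 between CASIN-treated and aged and 1 (Pax7) between young and CASIN-treated HSCs, with medians of -0.27, 0.043 and -0.098. Cdkn2a, the cell cycle inhibitor locus that Bmi1 is known to repress, was at the lowest value in all young samples. It was at 6.35, 3.30, 1.30 and 2.25 in aged replicates 2, 3, 4 and 5, at the lowest value in aged replicate 0, and at 3.34 and 0.037 in CASIN-treated replicates 1 and 2. Cdkn2a was thus detected in 0 of 4 young, 4 of 5 aged and 2 of 3 treated samples (young minus aged -2.09, SE 1.14). In aged replicate 4 and in both treated samples its value equals the first step of the sample. The treated value of 0.037 also lies below the lowest value of every young sample (0.43 to 0.67), so these counts rest partly on the smallest values.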

How the data were processed

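RNA-seq values of 12 samples were used. Per the study's methods, paired-end reads were trimmed and quality filtered with trim galore (phred score above 20), aligned with TopHat to the mm10 genome and RefSeq genes, and passed to Cufflinks; the step to the deposited values and the software versions are not given in the sources used here. The authors deposited a log2 expression value for each of 22548 genes in 12 samples. These values are quantile normalized and reach the same highest value (16.09) in every sample. At the low end the distributions differ, with lowest values of 0 to 0.67 and 2535 to 16470 genes at them. After quantile normalization, differences in total RNA between groups are not in the values. Genes of equal rank share a value where ranks are not tied, and a gene at the lowest value of a sample enters a test with that value. No counts were used, so depth and counting error are unknown.

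Samples were grouped by their labels, and replicate numbers were taken from the labels. The log2 values were tested as deposited, with limma 3.58.1 (R 4.3.3, functions lmFit and eBayes, two-sided tests), in a fit of the 3 groups over all genes without a filter, and Benjamini-Hochberg adjustment over all 22548 genes. Groups were said not to overlap after all values under 0.67, the highest of the lowest values, were raised to it. The test was tested on simulated data with known shifts. Promoters come from RefSeq (GRCm38.p6) and gene positions from GENCODE M21 (mm10). Figures used Python 3.11.15 and matplotlib 3.10.9.

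The rule for the members reads no values, but the members and gene lists were chosen with earlier results of these data known. All members could be named. Those with an unadjusted p under 0.05 or no overlap were described in full and paralogues set side by side. Beyond that rule, further members were given a difference with its SE, after their values were seen. By the rule, genes of other lists were named at a p under 0.01, with further ones (Cdkn2a, Pax7, Neurog2, Sox1) named after their values were seen. Of 24 markers of other blood cells, 22 have a row. Alternatives were a common lowest value, a common first step (added after the values were seen), centring, filters on detection and on the mean, a pseudocount of 0.1, array weights, limma-trend, robust eBayes, 2 groups only, a detection covariate, values at the lowest value as missing, a block for the replicate number, and leaving out each sample once.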

Additional observations from a re-analysis of the deposited data

Results flagged for a closer look

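Groups of 4 or 5 samples were tested for 13 members, where any sample detected the gene, and for the number of members detected. In 5 of these 26 groups, the highest or lowest sample stood apart from the others by Dixon's test. Chance gives this in about 1 in 20 groups, a rate that does not apply to the 4 young groups among them, in which 3 samples lie at their nearly equal lowest values and a single detection stands apart by construction. Young replicate 4 had the highest young value of Rybp (6.84), of Dnmt3b (2.21) and of Phc2 (1.84), where the other 3 young samples were at their lowest values (up to 0.67). Young replicate 5 was likewise the only young sample to detect Pcgf3, at 6.51. In aged HSCs, replicate 4 had the lowest Dnmt3a value (4.62), with the nearest other aged sample at 6.99.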

How the results depend on the processing

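Without the first-step setting and the other changes given here, counts of members with an unadjusted limma p under 0.05 stayed within 1.5 times 9 (young against aged), 4 (CASIN-treated against aged) and 4 (young against CASIN-treated). At the common first step, chosen after the values were seen, they were 3, 1 (Asxl2) and 2, where 2.63%, 2.46% and 2.83% of all genes had such a p, and the adjusted count went from 0 to 1 in both comparisons of young HSCs (Phc3, whose 4 young values become equal there) and stayed 0 in the other. With the percentage of detected genes as a covariate they were 5, 3 and 2 (4.99%, 5.04% and 4.59% of all genes), with values at the lowest value as missing 4, 2 and 1 (13.3%, 4.04% and 8.33% of genes tested), and with genes of a mean log2 value of at least 3 (20 members tested) 4, 3 and 3 (7.84%, 5.29% and 6.67% of genes tested). When samples were left out singly they ran from 6 to 9, 1 to 5 and 2 to 4, and the adjusted counts from 0 to 1 (1 without young replicate 3), 0 to 0 and 0 to 0. Treating values at the lowest value as missing turned the differences of Rybp between young and aged HSCs (0.52) and of Dnmt3a between CASIN-treated and aged HSCs (0.55); by construction it compares only samples that detected the gene. Centring on genes detected in all samples moved the median difference of all genes from -0.017 to 0.44 (young minus aged), from -0.038 to 0.31 (CASIN-treated minus aged) and from 0.092 to 0.19 (young minus CASIN-treated). Whether the shared replicate numbers pair the samples is not stated, and the values cannot decide it, because many of them lie at the lowest value. Deviations from the group means correlated at -0.033 to 0.058 in 8 same-numbered pairs and at -0.047 to 0.033 in 39 others. The highest was that of aged and CASIN-treated replicates 2 (0.058). With the replicate block the counts were 8, 5 and 4, of which 5, 1 and 3 were also called without it. The adjusted counts were 0 there. The cause of these changes was not tested, and the lack of counts limits all values near the first steps.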

Other observations

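Some genes that Polycomb complexes silence in most adult tissues were listed far above the lowest value in all 12 samples (chosen after their values were seen). The 3 named here had the highest mean deposited values of the 24 listed target genes, which is no ranking of expression between genes, since the unit is not given. Lhx5, Pax6 and Sox1 of the 24 were also detected in all 12 samples. Of these 24, 8 to 13 were detected in young, 15 to 21 in aged and 12 to 23 in CASIN-treated samples. Nkx2-1, a regulator of lung and thyroid development, stood at 8.67 to 10.79 in young, 9.43 to 10.61 in aged and 8.60 to 9.81 in CASIN-treated HSCs. Pax3, a regulator of neural crest and muscle, stood at 6.86 to 8.44, 7.97 to 8.59 and 7.60 to 8.04, and Tbx5, a heart and forelimb regulator, at 7.29 to 8.33, 6.44 to 7.93 and 6.91 to 10.10. None of these 3 had a limma p under 0.05 in any comparison. The germline gene Tdrd1 was also detected in all 12 samples, but of the 15 listed germline genes 2 to 7 were detected in young samples. In aged samples 5 to 12 of the 15 were detected, and in CASIN-treated samples 3 to 14.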
